A study of Mus musculus with 12 samples.

Results

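Sqle, Cyp51, Cyp39a1, Csad and Acnat2 are 5 liver genes of sterol synthesis, oxysterol breakdown, taurine synthesis and a family of enzymes that conjugate bile acids or fatty acids. They are 5 of the 369 rows in the deposited tables, which hold only genes that the authors' own test had listed. Sqle, Cyp51, Cyp39a1 and Csad are among the 336 rows for high-fat diet against chow, and Acnat2 is among the 33 rows for PCN against vehicle. The 5 were thus chosen by symbol from genes selected on these same contrasts, so their differences are given as descriptions and none is tested here.

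All mice were PXR-deficient C57BL/6N, which applies to the chow and vehicle mice as much as to the others. PXR is the liver's receptor for foreign compounds, and PCN (pregnenolone carbonitrile) is its usual activator in rodents. Livers came from 4 groups of 3 mice, with 1 library per mouse. HFD mice ate a high-fat diet for 18 weeks from 6 weeks of age, and chow mice ate regular chow for as long. The other 2 groups also ate the high-fat diet for 18 weeks from 6 weeks of age. They then had 1 injection a day into the abdomen for 4 days, of PCN at 50 mg/kg or of vehicle. The vehicle was 30% DMSO in corn oil. The labels give neither sex nor how the receptor was removed. The receptor's own gene was not analysed here, so its loss could not be checked.

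Cholesterol is built from acetyl-CoA by way of squalene and lanosterol, and SREBP-2 raises the enzymes of this route when sterols run low. The liver turns cholesterol and oxysterols into bile acids and then joins them to taurine, the main partner of bile acids in mice. Taurine is made from cysteine, and Csad carries out the step that yields hypotaurine. Baat joins the taurine to bile acids, and Acnat2 is of the Baat family. The activity of Acnat2 itself was not measured here.

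Sequences upstream of the transcription start are shown for Cyp51, the sterol enzyme for which a window was held, and for Acnat2, the gene higher with PCN. Of the 5 genes, 3 matched a RefSeq promoter window (GRCm38.p6), namely Cyp51 with 1 window, Csad with 2 and Acnat2 with 2. The Cyp51 stretch is the minus strand of chr5:4104747-4104947, at positions -250 to -50 from the RefSeq start, and ends just before the outermost GENCODE start of the gene. In it, capitals mark the GC box GGGCGG and TCACCTCAG, a core of the sterol element that SREBP proteins bind. The Acnat2 stretch is the minus strand of chr4:49408152-49408401, at positions -250 to -1. Capitals there mark the CCAAT box, found 2 times, and between them a full glucocorticoid response element, an inverted repeat that the glucocorticoid receptor binds.
Cyp51: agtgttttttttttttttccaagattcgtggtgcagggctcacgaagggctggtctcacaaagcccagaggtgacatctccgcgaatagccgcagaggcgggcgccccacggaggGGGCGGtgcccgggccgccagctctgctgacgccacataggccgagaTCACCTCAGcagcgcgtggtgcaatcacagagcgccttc
Acnat2: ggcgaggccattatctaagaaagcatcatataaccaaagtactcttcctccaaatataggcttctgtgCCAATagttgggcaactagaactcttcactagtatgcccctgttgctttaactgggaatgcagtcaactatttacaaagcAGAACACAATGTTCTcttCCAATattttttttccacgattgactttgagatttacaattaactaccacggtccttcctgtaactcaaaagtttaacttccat

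Motifs were searched on both strands, and a match is only a match of letters. TCACCTCAG lies at positions -88 to -80 of Cyp51 and occurs in 0.381% of 32851 RefSeq windows. It was searched for after the Cyp51 window had been read. The commoner core TCACNCCAC occurs in 1.24% of windows and in none of the 5 windows of these genes. GGGCGG occurs in 35.7% of windows and CCAAT in 37.4%. The glucocorticoid element lies at positions -102 to -88 of Acnat2, a place it shares with no other motif searched, and fits the motif on both strands. It occurs in 3 of the 32851 windows (0.00913%), those of Acnat2, of Sgk1, which encodes a kinase induced by glucocorticoids, and of the predicted gene Gm35041. Sgk1 and Gm35041 are not among the rows of either table. The remaining matches were a CCAAT box at -29 to -25 of Cyp51, past the stretch shown, and one on the opposite strand at -234 to -230 of the second Acnat2 window. The upstream Csad window holds 1 CCAAT box and the other Csad window 1 GC box, on the opposite strand. The LRH-1 type site TCAAGGTCA (0.423% of windows) and the nuclear receptor element AGGTCA (16.3%) occur in none of the 5 windows.

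Values below are normalized counts, meaning raw counts divided by the authors' size factor for that mouse. The size factors were recovered from the deposited means. They were 0.929 to 1.14 in HFD mice and 0.829 to 1.04 in chow mice, and 0.827 to 1.17 in PCN mice and 0.737 to 1.26 in vehicle mice. The depth of whole libraries is unknown. Counts summed over the listed rows were 625048 to 920106 in HFD mice and 547431 to 670379 in chow mice, and 55818 to 103036 in PCN mice and 34989 to 56319 in vehicle mice. Of the 334 diet rows whose groups do not overlap, the HFD mouse nearest to the chow mice was 659 in 39.5%, 696 in 30.8% and 669 in 29.6%. The chow mouse nearest to the HFD mice was 695 in 44.6%, 670 in 28.7% and 707 in 26.6%. Of the 33 PCN rows, the PCN mouse nearest to the vehicle mice was 698 or 706 in 42.4% each and 688 in 15.2%. The vehicle mouse nearest to the PCN mice was 705 in 60.6%, 682 in 24.2% and 697 in 15.2%.

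Of the 22 cholesterol synthesis genes looked for, Sqle and Cyp51 are the 2 among the diet rows, and both had lower values in HFD livers. Of all genes the authors tested, 0.484% were listed as lower. Sqle (ENSMUSG00000022351), on chr15:59315077-59331192 (GRCm38, plus strand), encodes squalene epoxidase, which acts on squalene on the way to lanosterol. Its normalized counts were 165, 137 and 104 in HFD mice 659, 669 and 696, against 509, 261 and 198 in chow mice 670, 695 and 707. The groups do not overlap, but chow mouse 707 lies close to HFD mouse 659, and chow mouse 670 lies far above every other mouse. Sqle averaged 135 ± 30.8 in HFD mice and 323 ± 164 in chow mice (SD, n = 3 each), 2.39-fold lower (log2 ratio -1.25, SE 0.46). Without chow mouse 670 it was 1.70-fold lower. Raw Sqle counts were 118 to 183 in HFD mice and 164 to 521 in chow mice, so the ranges overlap before scaling.

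Cyp51 (ENSMUSG00000001467), on chr5:4081145-4104746 (minus strand), encodes the demethylase that acts on lanosterol. It had 557, 621 and 586 normalized counts in HFD mice 659, 669 and 696, against 1018, 1211 and 765 in chow mice 670, 695 and 707. The 3 HFD mice lie close together and all below the lowest chow mouse, 707. Cyp51 averaged 588 ± 32.3 in HFD mice and 998 ± 223 in chow mice (SD, n = 3 each), 1.70-fold lower (log2 ratio -0.76, SE 0.19). Its spread was 5.49% of the mean in HFD mice and 22.4% in chow mice, where counting error alone would give 4.02% and 3.2%. Raw Cyp51 counts overlapped as well, at 577 to 666 in HFD mice and 634 to 1261 in chow mice.

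The oxysterol gene was lower too. Cyp39a1 (ENSMUSG00000023963), on chr17:43667425-43751431 (plus strand), encodes an oxysterol hydroxylase on a side route to bile acids. Its normalized counts were 454, 365 and 263 in HFD mice 659, 669 and 696, against 815, 597 and 743 in chow mice 670, 695 and 707. The groups are apart, with 143 counts between HFD mouse 659 and chow mouse 695, and raw counts do not overlap either. Cyp39a1 averaged 360.5 ± 95.4 in HFD mice and 718 ± 111 in chow mice (SD, n = 3 each), 1.99-fold lower (log2 ratio -0.99, SE 0.26).

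Csad showed the widest difference of the 4 diet genes. Csad (ENSMUSG00000023044), on chr15:102176999-102204724 (minus strand), encodes cysteine sulfinic acid decarboxylase of taurine synthesis. It had 1150.4, 1028 and 1388 normalized counts in HFD mice 659, 669 and 696, against 2872, 6021 and 6435 in chow mice 670, 695 and 707. Chow mouse 670 had less than the other chow mice but still well over any HFD mouse. Csad averaged 1189 ± 183 in HFD mice and 5109 ± 1949 in chow mice (SD, n = 3 each), 4.30-fold lower (log2 ratio -2.10, SE 0.34). Leaving out each mouse in turn moved this between 3.74-fold and 5.24-fold, the highest value being that without chow mouse 670. By this ratio Csad ranks 11 among the 121 listed lower genes, Sqle 33, Cyp39a1 60 and Cyp51 100, and the median of those 121 is 1.99-fold lower. By the authors' deposited log2 fold change the ranks are 2, 43, 58 and 97 in the same order.

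**Figure D1:**
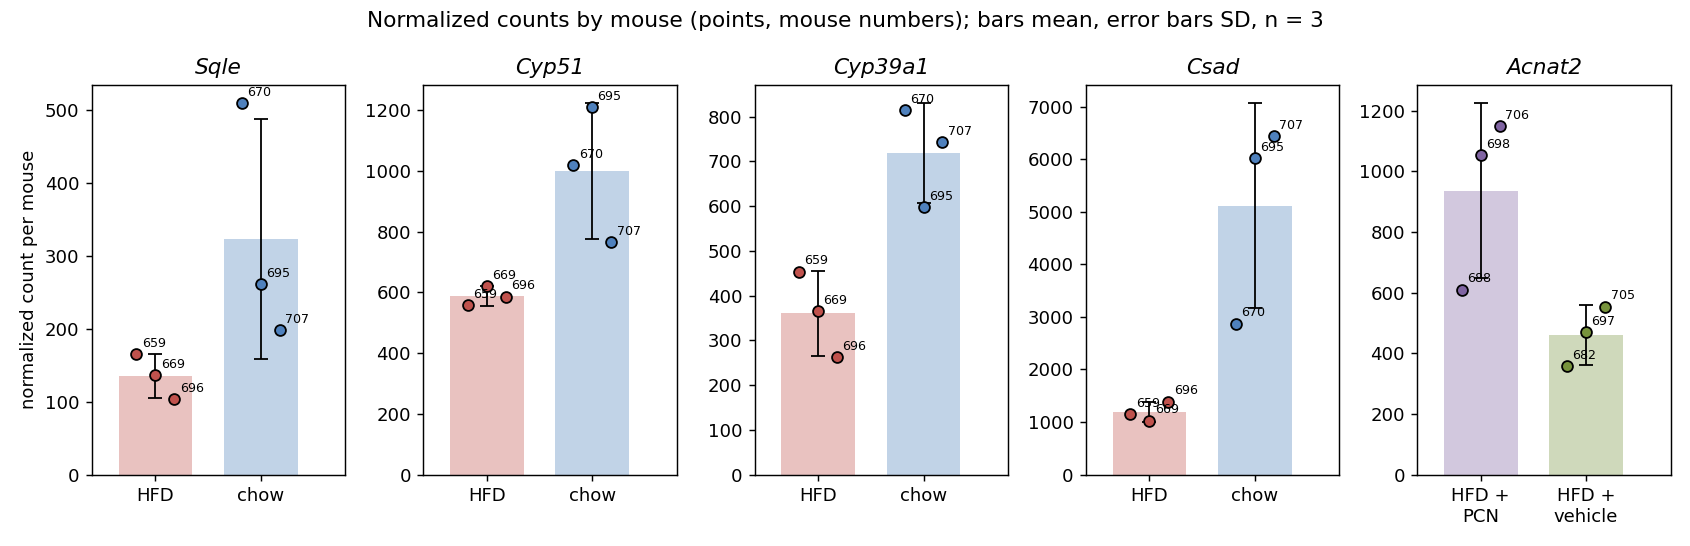
Normalized counts (vertical axes, linear, from 0) of the 5 genes in each mouse, with mouse numbers; bars are means and error bars SD (n = 3). HFD mice lie below chow mice in the first 4 panels, with Sqle of chow mouse 670 at 509 far above the others, and PCN mice lie above vehicle mice for Acnat2.

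Acnat2 was higher with PCN. The gene (ENSMUSG00000060317), on chr4:49379840-49408151 (minus strand), encodes an acyl-CoA amino acid N-acyltransferase of the Baat family. Baat conjugates bile acids, and the neighbour Acnat1 is known to join fatty acids to taurine. Acnat2 had 609.8, 1052 and 1147 normalized counts in PCN mice 688, 698 and 706, against 357, 469 and 553 in vehicle mice 682, 697 and 705. All PCN mice lie above all vehicle mice, but PCN mouse 688 is only 56.3 counts above vehicle mouse 705. Acnat2 averaged 936 ± 287 in PCN mice and 459.7 ± 98.7 in vehicle mice (SD, n = 3 each), 2.04-fold higher (log2 ratio 1.03, SE 0.31). Without PCN mouse 688 it was 2.39-fold higher, and without PCN mouse 706 it was 1.81-fold higher. Without vehicle mouse 705, the vehicle mouse nearest to the PCN mice here as in most PCN rows, it was 2.27-fold higher. The median of the 21 listed higher genes is 2.07-fold. Mouse 688, lowest of the PCN mice for Acnat2, was highest for Tat, an amino acid catabolism gene on the hepatocyte marker list, at 32279 against 19666 and 19133 in PCN mice 698 and 706.

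Acnat2 counts carry an added uncertainty, because part of its transcript is identical to that of Acnat1. Acnat1 lies 39.0 kb upstream of Acnat2 on the same strand. Of the 1740 different runs of 50 bases in Acnat2 transcripts (GENCODE M21), 522 (30.0%) also occur in Acnat1 transcripts. No source used here tells how the authors' counting treated reads that fit both genes. The longest coding stretch in common is 200 bases, from base 305 to base 504 of an Acnat2 coding sequence of 1263 bases. It is shown in lower case because a read inside it fits both genes equally.
Acnat2 and Acnat1: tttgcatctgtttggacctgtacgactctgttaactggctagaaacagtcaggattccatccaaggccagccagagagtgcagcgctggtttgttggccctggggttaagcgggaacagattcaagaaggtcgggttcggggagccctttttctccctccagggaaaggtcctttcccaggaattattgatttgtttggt

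The other genes share little sequence. The share of 50-base runs found in another gene was 0.0358% for Sqle, 2.77% for Cyp51 and 3.43% for Csad, and 0 of 3145 runs for Cyp39a1. Most of the Cyp51 runs lie in Akap9 and all of the Csad runs in Zfp740, genes that overlap them on the opposite strand over 166 and 278 exonic bases. Whether counting used strand is not given, so reads from those overlaps cannot be told apart.

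Per kilobase of annotated exon, the level of Csad was highest of the 4 diet genes in both groups, at 310.3 ± 47.7 normalized counts per kb in HFD mice and 1334 ± 509 in chow mice (SD, n = 3 each). Sqle had the lowest level, 24.4 ± 5.56 per kb in HFD mice and 58.2 ± 29.7 in chow mice (SD, n = 3 each). Cyp51 and Cyp39a1 lie between, and their order is not the same in both groups. Their levels were 133 ± 7.31 and 118 ± 31.3 per kb in HFD mice, and 226 ± 50.6 and 235 ± 36.4 per kb in chow mice (SD, n = 3 each). The gap between them was smaller than either SD in chow mice. In HFD mice it was smaller than the SD of Cyp39a1 but larger than that of Cyp51. Acnat2 levels come from a table normalized separately and are not ranked with these.

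**Figure D2:**
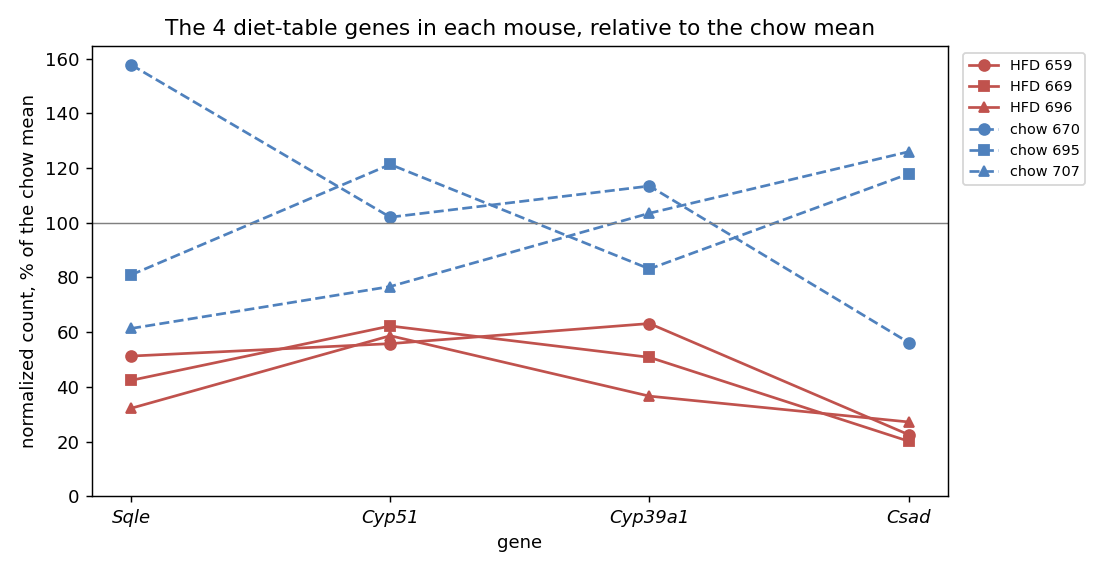
Normalized counts of the 4 diet genes in each mouse as a percentage of the chow mean of that gene (vertical axis, linear); a line joins the genes of 1 mouse, solid for HFD and dashed for chow. HFD mice run from 20.1% to 63.1%, and chow mouse 670 is highest for Sqle (158%) and lowest of its group for Csad (56.2%).

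The 4 diet genes did not order the mice alike. Among HFD mice, 659 had the highest and 696 the lowest value for both Sqle and Cyp39a1, whereas for Csad mouse 696 was highest. In the chow group, mouse 670 was highest for Sqle and Cyp39a1, mouse 695 for Cyp51 and mouse 707 for Csad. As a percentage of the chow mean, Cyp51 stayed between 55.8% and 62.2% in the 3 HFD mice, while Sqle ranged from 32.2% to 51.2%.

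Ratios of 2 genes within 1 library do not depend on its scaling. The ratio of raw Sqle to raw Cyp51 counts was 0.297, 0.22 and 0.177 in HFD mice 659, 669 and 696, against 0.5, 0.216 and 0.259 in chow mice 670, 695 and 707. These ranges overlap. The Sqle to Cyp51 ratio averaged 0.231 ± 0.061 in HFD mice and 0.325 ± 0.153 in chow mice (SD, n = 3 each). The means differed by less than the chow SD but by more than the HFD SD. The ratio of Csad to Cyp39a1 was 2.54, 2.82 and 5.28 in HFD mice, against 3.52, 10.1 and 8.66 in chow mice 670, 695 and 707. Here chow mouse 670 lies among the HFD mice and the other chow mice lie above them.

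**Figure D3:**
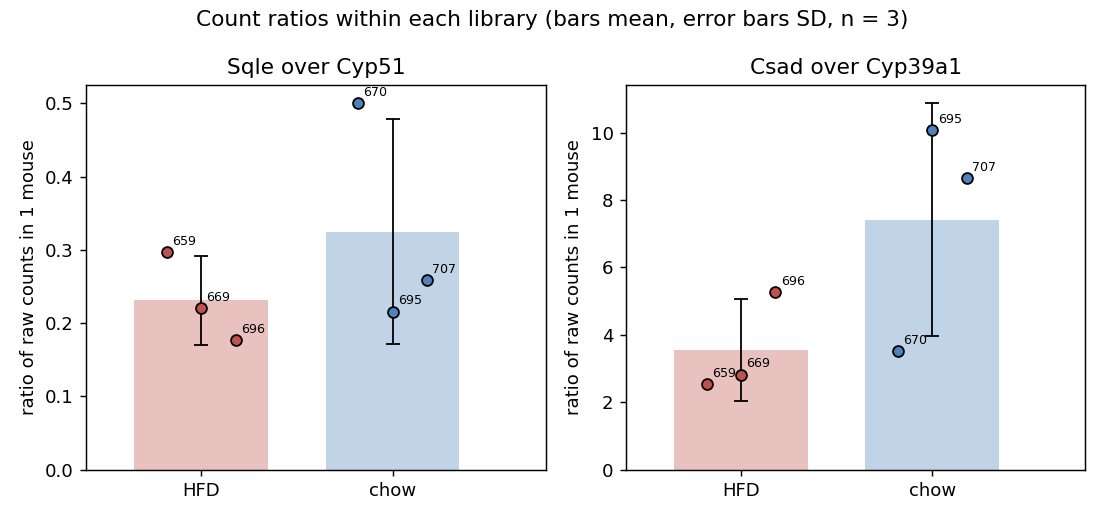
Ratios of raw counts within each library (vertical axes, linear, from 0) for Sqle over Cyp51 and Csad over Cyp39a1; points are mice, bars means and error bars SD (n = 3). HFD and chow mice overlap in both panels, with chow mouse 670 at 0.5 for the first and 3.52 for the second.

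For HFD over chow, the authors' deposited table lists log2 fold changes of -0.93 (SE 0.25, adjusted p = 0.01866) for Sqle and -0.69 (SE 0.18, adjusted p = 0.01049) for Cyp51, by the authors' test. The same deposited table gives -0.86 (SE 0.2, adjusted p = 0.002451) for Cyp39a1 and -1.71 (SE 0.22, adjusted p = 3.29e-11) for Csad. For Acnat2 the authors' deposited table gives 0.71 (SE 0.17, adjusted p = 0.03099), PCN over vehicle. These are the values on which the rows were listed. For all 5 genes these fold changes are smaller in size than the log2 ratios of means given above. The reason was not tested. The smallest absolute log2 fold change in either table is 0.6 and no row under it was held, so Cyp51 and Acnat2 are the members nearest to that limit. All 4 diet genes were called lower, against 121 listed as lower of about 24980 genes tested by the authors (0.484%). Acnat2 was called higher at an adjusted p under 0.05, against 17 of about 25290 (0.0672%). Another 4 of the 21 listed higher genes had larger adjusted p-values. By p-value the last listed diet gene ranks an estimated 404 among all genes tested, against 336 rows. Some genes under an adjusted p of 0.05 were thus not listed, and the diet share leaves out any of them that were lower. The groups of each of the 5 genes do not overlap, as in 99.2% of the 121 listed lower diet genes and in 100% of the 21 listed higher PCN genes. Listing by the authors fixes these counts, and they say nothing further about the 5 genes.

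Calls depended on the test and on the scaling. Only the listed rows were fitted here, while the adjustment and the percentages use the number of genes the authors tested. These percentages are thus not shares of the rows fitted. edgeR's quasi-likelihood test with the recovered size factors called 0 of the 4 diet genes, all with unadjusted p under 0.05. It called 1 lower gene in all (0.004%). Its adjusted p was 0.0864 for Csad, 0.336 for Cyp39a1 and 0.475 for Sqle and for Cyp51. Without chow mouse 670 the edgeR adjusted p of Csad was 0.023. That fit called 2 lower genes of about 24980, and fits without any other HFD or chow mouse called 0 lower genes. With TMM scaling over the listed rows edgeR called all 4, among 112 lower genes (0.448%). DESeq2 refitted to the listed rows called all 4, among 121 (0.484%). The authors listed 121 genes as lower, so these fits called about as many lower genes as were listed. Their size factors moved the median log2 ratio of all diet rows by -0.63 and -0.66. Acnat2 was not called by edgeR with the recovered size factors (unadjusted p = 0.00183, adjusted p = 1), which called 2 higher genes in all (0.00791%). Nor was it called with TMM or by DESeq2, which called 1 higher gene each (0.00395%) and gave Acnat2 an unadjusted p of 0.079 and 0.189. Their size factors moved the median log2 ratio of all PCN rows by -0.50 and -0.64.

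Other genes of the same pathways came from lists of 22 cholesterol synthesis genes, 22 genes of sterol sensing, uptake and export, 17 of oxysterol and bile acid synthesis, 13 of bile acid conjugation and taurine supply and 18 of bile acid transport and sensing. Among the diet rows, 2 of the 22 synthesis genes were listed, Sqle and Cyp51, both lower, and none of the sterol sensing genes. Over all of the about 24980 genes tested by the authors, 121 were listed as lower (0.484%) and 215 as higher (0.861%). Cyp39a1 was the 1 bile acid synthesis gene listed. Of the conjugation and taurine list 2 were lower, Csad and Cbs. Cbs, which encodes the enzyme that begins the making of cysteine from homocysteine, had 4252, 5335 and 5793 normalized counts in HFD mice, against 7491, 6984 and 10936 in chow mice (1.65-fold lower). All HFD mice lie below all chow mice for Cbs. Of the transport list 1 gene was higher, Slco1a4, an organic anion and bile salt uptake carrier, with 652, 647 and 715 in HFD mice and 213, 78.7 and 158 in chow mice. Among the PCN rows Acnat2 was the 1 gene listed from these 5 lists.

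Srebf1, which encodes the lipogenic relative of SREBP-2, was higher in the mice in which Sqle and Cyp51 were lower. It had 1477, 1849 and 2017 normalized counts in HFD mice, against 448, 813 and 584 in chow mice. Of 17 genes on the list of SREBP-1 and lipogenesis 6 were listed, all higher, against 0.861% of all genes tested, and no gene of this list was lower among the rows held. Thrsp, which encodes a regulator of lipogenesis, had 3796, 2763 and 3978 normalized counts in HFD mice, against 107, 761 and 181 in chow mice. The others were the glycolytic pyruvate kinase gene Pklr (2.04-fold higher), the fatty acid elongase gene Elovl6 (1.95-fold), the fatty acid synthase gene Fasn (1.91-fold) and the desaturase gene Scd1 (1.64-fold).

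Some markers of other liver cells were also among the diet rows. Against a background of 0.861% of all tested genes listed as higher, 4 of 12 stellate cell and fibroblast markers were listed, all higher (the collagen genes Col1a1, Col1a2 and Col3a1 and the filament gene Vim), and their summed normalized counts were 1671 to 3262 in HFD mice and 633 to 732 in chow mice. Of 14 macrophage markers 2 were listed, both higher (Itgax and Mmp12) against the same background, with sums of 71.2 to 119 in HFD mice and 12.5 to 25.3 in chow mice. Both sums hold only the listed markers, which were listed for differing between the diets. Listing thus fixed the gap between the groups, and markers not listed are left out. No listed marker was at 0 in any mouse. HFD mouse 659 had the highest stellate sum and also the highest Sqle and Cyp39a1 of its group. The same mouse had the lowest Cyp51 (557) and the middle Csad value (1150.4) of its group. None of the 15 hepatocyte markers, 8 cholangiocyte markers or 8 endothelial markers is among the diet rows, so liver identity was not checked there. In the PCN table Cd163, 1 of the 14 macrophage markers, was at 938 to 1286 in PCN mice and 503 to 690 in vehicle mice, and Tat, 1 of the 15 hepatocyte markers, at 19133 to 32279 and 11373 to 15569. The part of these markers in the results was not tested, and in whole liver fewer cells of a type and less RNA per cell cannot be told apart.

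For each gene the rows with the closest profile were those with the smallest root mean square difference over the 6 mice of log2 values, each centred on its chow or vehicle mean. For Sqle these were Slc16a1, which encodes a lactate and pyruvate carrier (0.23 log2 units), Rab11fip4 (0.23) and Frat1 (0.26). Slc16a1 averaged 880.4 ± 203 normalized counts in HFD mice and 2009 ± 577 in chow mice (SD, n = 3 each). For Cyp51 they were the histone methyltransferase gene Nsd2 (0.15), Cacybp (0.17) and Bend7 (0.17). Cyp39a1 had the closest match of all 5 genes, Rtn4rl1 (0.08), then Hacl1 (0.12), which encodes a peroxisomal lyase of fatty acid breakdown, and the glycerol kinase gene Gk (0.17). Hacl1 averaged 249.5 ± 67.7 in HFD mice and 493 ± 31.4 in chow mice (SD, n = 3 each). The nearest rows to Csad were further off, namely Med12l (0.51), the prostaglandin carrier gene Slco2a1 (0.53) and the retinoic acid hydroxylase gene Cyp26a1 (0.55). For Acnat2 the nearest of the 33 rows were the receptor kinase gene Epha2 (0.32), Shld2 (0.34) and Myom3 (0.37). Sqle, Cyp51, Cyp39a1 and Csad are not among each other's closest rows.

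The size of the differences depended on scaling. TMM factors computed on the listed rows alone moved the median log2 ratio of all diet rows by -0.63, and that of all PCN rows by -0.50. With them the log2 ratio was -2.74 for Csad, -1.90 for Sqle, -1.65 for Cyp39a1, -1.40 for Cyp51 and 0.56 for Acnat2, in the same directions as with the authors' size factors.

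**Figure D4:**
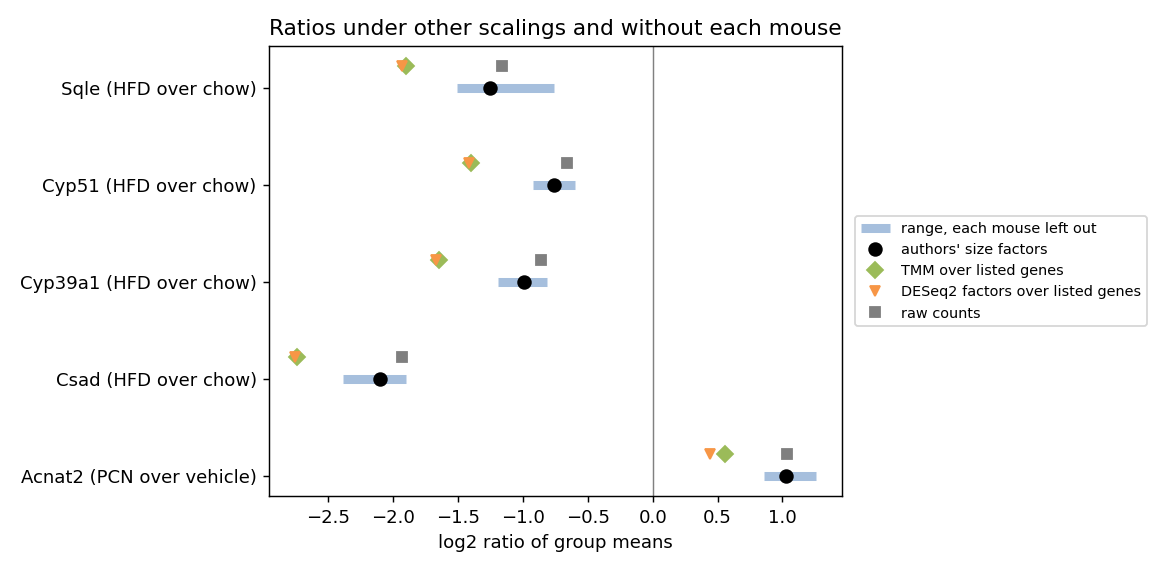
Log2 ratio of group means (horizontal axis) of the 5 genes, HFD over chow or PCN over vehicle; black points use the authors' size factors, blue bars give the range over leaving out each mouse, and other symbols give other scalings. No setting crosses 0, which leaving out a mouse could not do, as the groups of each gene do not overlap. Scalings computed on the listed rows shift the 4 diet genes to the left and Acnat2 to the left.

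Members of each table were looked for in the other. None of the 4 diet genes is among the 33 PCN rows and Acnat2 is not among the 336 diet rows, so PCN values of the 4 genes and diet values of Acnat2 were not analysed here.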

How the data were processed

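Whole-liver RNA sequencing of 12 mice was analysed from 2 tables. HISAT2, HTSeq and DESeq2 on build GRCm38 (mm10) are named, per the submitters' processing notes, with versions, settings and strand use not given in the sources used here. Per the file headers, the deposited mouse columns are raw counts per gene, beside the authors' mean, log2 fold change, standard error and p-values. Groups and mouse numbers came from the labels. The tables hold listed genes only, so the authors' test, the one that saw all genes, supplied the calls, and edgeR and DESeq2 fits on the listed rows are alternatives. Size factors were solved from the deposited means (largest gap 0.0051 counts), and the number of genes tested was estimated from the ratio of p to adjusted p. The authors' calls cover the spread between 3 mice and 3, and intervals of counting error are not given for single values. Standard errors of log2 ratios come from the group SDs. filterByExpr kept 331 of 336 and 33 of 33 rows. The edgeR step was also run on data simulated from the listed rows with known fold changes. The outcome is not given here, so it is no check of the calls. Versions were edgeR 4.0.16, DESeq2 1.42.0, R 4.3.3 and Python 3.11.15.

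Members and gene lists were chosen with earlier results of these data known. The genes named are the 5 members, list members among the rows, and the 3 rows closest to each member with a mean normalized count of 10 or more, leaving out predicted genes (pseudocount 0.5). Gm35041 and Sgk1 were named after the motif search. Start positions were checked against GENCODE M21 and are 1-based.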

Additional observations from a re-analysis of the deposited data

How the results depend on the processing

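Of 55 other settings for the 5 ratios (scalings, medians, the edgeR estimate and leaving out each mouse), 55 kept the direction. The groups of each gene do not overlap, so leaving out a mouse or taking medians could not reverse it. The edgeR estimate used the same size factors, and TMM and DESeq2 factors moved the 4 diet genes further down, so these settings add little. TMM and DESeq2 size factors computed on the listed rows moved the median log2 ratio of all diet rows by -0.63 and -0.66, and of all PCN rows by -0.50 and -0.64, since they centre on rows listed for having changed. The log2 ratio with TMM was -1.90 for Sqle, -1.40 for Cyp51, -1.65 for Cyp39a1, -2.74 for Csad and 0.56 for Acnat2. With DESeq2 size factors it was -1.93, -1.42, -1.67, -2.75 and 0.44 in the same order. Members called were 4 on diet and 1 with PCN, against 2 and 0 at an authors' adjusted p under 0.01. At 0.05, 0.484% of all genes the authors tested were listed as lower on diet and 0.0672% as higher with PCN. Shares of all genes at 0.01 were not counted. edgeR with recovered size factors called 0 and 0, with or without the filter. When each mouse was left out it called 0 to 1 on diet and 0 with PCN. Csad was called without chow mouse 670, in a fit that called 2 lower genes of about 24980. TMM and DESeq2 called 0 with PCN. The cause of these gaps was not tested. At an adjusted p under 0.01 the cholesterol synthesis list held 0 lower genes in place of 2, the conjugation and taurine list 1 in place of 2 on diet and 0 in place of 1 with PCN, and the lipogenesis list 2 higher in place of 6. With a pseudocount of 5, 14 of the 15 closest rows were the same. Mouse numbers are not shared between groups, so nothing was paired. Depth limits Sqle most, at 118 counts in its lowest mouse. With 3 mice against 3, single mice such as chow 670 weigh heavily.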
